A study of Mus musculus with 8 samples.

Results

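The 6 adrenal tumors of LSL-MYCN;Dbhi-Cre mice, labelled tumor 1 to tumor 6, were described among themselves. They were chosen by their labelled source, the adrenal, and make up 6 of the 8 tumors of the series. All 6 carried the same alleles: a human MYCN cDNA behind the CAG promoter and a loxP-flanked stop, followed by an IRES and luciferase, placed in the ROSA26 locus, together with Dbhi-Cre, in which the dopamine beta-hydroxylase promoter drives Cre recombinase in noradrenergic cells. All 6 were untreated, and the labels give no strain, sex or age for single tumors. MYCN is thus switched on from a strong general promoter in cells that make noradrenaline. Each tumor was measured on 1 Affymetrix whole-genome mouse array, so differences between tumors hold biological and technical spread together. Nothing in the labels or methods ties each tumor to a mouse of its own.

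Neuroblastoma arises from neural crest cells on their way to become sympathetic neurons or chromaffin cells of the adrenal medulla. Such cells are held in their identity by a set of transcription factors, among them Phox2a, Hand2, Gata3 and Isl1, and make noradrenaline from tyrosine through Th, Ddc and Dbh. A piece of tumor also holds blood vessels, fibroblasts, Schwann cells, immune cells and, at the adrenal, neighbouring cortex. In such bulk RNA, fewer cells of a type and less RNA per cell cannot be told apart.

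Values were log2 signals of probe sets, and where a gene had several probe sets, the one with the highest average signal in these tumors was read. This gave 18194 genes. A gene was called detected in a tumor above the 95th percentile of 84 probe sets of olfactory, vomeronasal and taste receptors. These genes are expressed mainly in sensory tissue and were taken as background for this limit. That limit lay between 6.71 in tumor 6 and 7.21 in tumor 2. Of the 18194 genes, 10095 were detected in all 6 tumors (55.5%), 5999 in none, and 12195 in at least 1, which are called expressed below. The array of tumor 1 stood apart in a common measure of RNA quality, the gap between 3′ and 5′ control probe sets. For Gapdh that gap was 5.51 there and 0.54 to 1.14 on the other arrays, and for Actb it was 2.77, again the highest of the 6. Over all expressed genes, tumors 1 to 6 were the highest for 29.9%, 19.5%, 15%, 9.55%, 16% and 9.95%, and the lowest for 19.6%, 14%, 17.2%, 13%, 21.9% and 14.3%. Counts of highest and lowest list members are given beside these shares. Counts of members detected in all tumors or in none are to be read beside 55.5% and beside 5999 of 18194. Every account of tumor 1 below is to be read beside these values, and their part in it was not tested.

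Noradrenergic transcription factors were present in every tumor. All 15 measured transcription factors of the noradrenergic list were detected in all 6 tumors. Only 3.02% of all expressed genes had an SD of 1 or more, so its absence among these 15 factors tells little. Sox4 (13.96 ± 0.09, SD, n = 6), Isl1 (13.85 ± 0.14) and Hand2 (13.50 ± 0.14) were the 3 steadiest of them, and Prox1 (11.35 ± 0.58) and Phox2a (11.54 ± 0.55) the 2 most spread. Phox2a was 11.52, 12.17, 11.20, 12.26, 10.95 and 11.15 in tumors 1 to 6. Tumor 4 had the highest value for 9 of the 15 factors (9.55% of all expressed genes), with a mean deviation of 0.26 from the gene means, while the other tumors lay between -0.10 and 0.01.

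The noradrenaline pathway was present in every tumor, with all 10 measured genes of synthesis and transport detected 6 times. Th, which makes L-DOPA from tyrosine, was 13.93 ± 0.24 (SD, n = 6), and Ddc, which turns L-DOPA into dopamine, was 14.08 ± 0.22. Dbh, which makes noradrenaline and whose promoter drives the Cre, was 13.24 ± 0.38 and lowest in tumor 3 (12.53). Gch1, needed for the cofactor of Th, was 12.27 ± 0.28, and Maoa, which breaks catecholamines down, was 11.95 ± 0.26. Pnmt, which makes adrenaline from noradrenaline, was 8.73 ± 0.15. The vesicular transporters and Cyb561 had the widest SDs of the list, 0.72 to 0.77. Slc18a1, the vesicular transporter of chromaffin cells, was lowest in tumor 2 (7.97) and highest in tumor 4 (10.21). Slc18a2, the vesicular transporter of neurons, was 11.06 in tumor 1 and 12.46 to 12.99 on the other arrays. Slc6a2, which takes noradrenaline up again, was 12.90 ± 0.35, and Cyb561, an electron carrier of the vesicle membrane, ran from 11.96 in tumor 3 to 13.88 in tumor 2.

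The tumors shared one ranking of genes to a large extent. Over the 12195 expressed genes, Pearson's r between 2 tumors averaged 0.941 over the 15 pairs and ran from 0.903 for tumors 1 and 6 to 0.973 for tumors 3 and 4. These are correlations across genes, which are not independent replicates, and all arrays share their probes. Tumor 6 had the lowest mean r with the others (0.917) and tumor 4 the highest (0.956). However, 367 of the expressed genes were detected in tumor 6 alone, against 12 to 72 for each other tumor. These genes entered the comparison only through tumor 6, so its low r depends in part on the filter. Spearman's rank correlation averaged 0.934 for tumor 6, 0.937 for tumor 1 and 0.959 for tumor 4. Of the 100 genes with the highest signal in each tumor, 69 were in the top 100 of all 6, out of 131 that appeared in any. Of the top 500, 345 were shared, out of 694. A gene's percentile rank moved by a median of 7.90 points between the tumor where it stood lowest and the one where it stood highest. For 63.3% of expressed genes it moved by less than 10 points, and for 118 genes by 50 points or more, of which 92 were highest in tumor 6. A rank here is of probe-set signal and includes how well a probe binds, so it does not order genes by number of transcripts.

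The shared top of the ranking held the machinery of protein synthesis and the cytoskeleton of growing neurons. Of the 69 shared genes, 30 coded for ribosomal proteins and 6 for tubulins or actins. The highest signals were those of Tmsb10, an actin-binding thymosin (15.24 ± 0.03, SD, n = 6), Tuba1a, an alpha-tubulin of developing neurons (14.89 ± 0.02), Rpl41 (14.85 ± 0.13), the translation factor Eef1a1 (14.81 ± 0.09) and Rps29 (14.79 ± 0.04). Among the next 10 were Tmsb4x, Basp1 of growth cones, the microtubule regulator Stmn1, the neurofilament gene Nefl (14.67 ± 0.13) and Actb (14.65 ± 0.07). Tpt1, Rps24, Rplp2, Rpl37a and Rpl38 completed the 15. Neuronal genes Stmn2, Stmn3, Nefm, Tubb2b and Dpysl2 were also in the shared top 100, as was Cartpt, which codes for a neuropeptide, and the imprinted Ndn.

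Most expressed genes varied little. The median SD was 0.263, with quartiles of 0.182 and 0.391. Of the genes detected in all 6 tumors, 3386 had an SD under 0.2 (33.5%), and of the expressed genes 368 had an SD of at least 1 (3.02%). The steadiest genes with a mean of at least 9 were Tpt1 (14.75, SD 0.016), Wdr26 (11.86, SD 0.020), Tuba1a, Rps24, 1110002L01Rik, Osbp, an oxysterol-binding protein (10.64, SD 0.027), Rps4x, Rps7, Tmsb10, Tubb5, Abhd11, Rpl8, Rps28, Psme3ip1 and Bex1. Of the 75 genes with a mean of 14 or more, 92% had an SD under 0.2, with a median SD of 0.093. Near the upper end of the scale array signals level off, so a low SD there does not show equal transcript numbers. Wdr26 and Osbp lay well below that range. A second probe set of Wdr26 ran from 10.62 to 11.16, and its values did not follow the first (r of about 0 over 6 tumors).

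**Figure D1:**
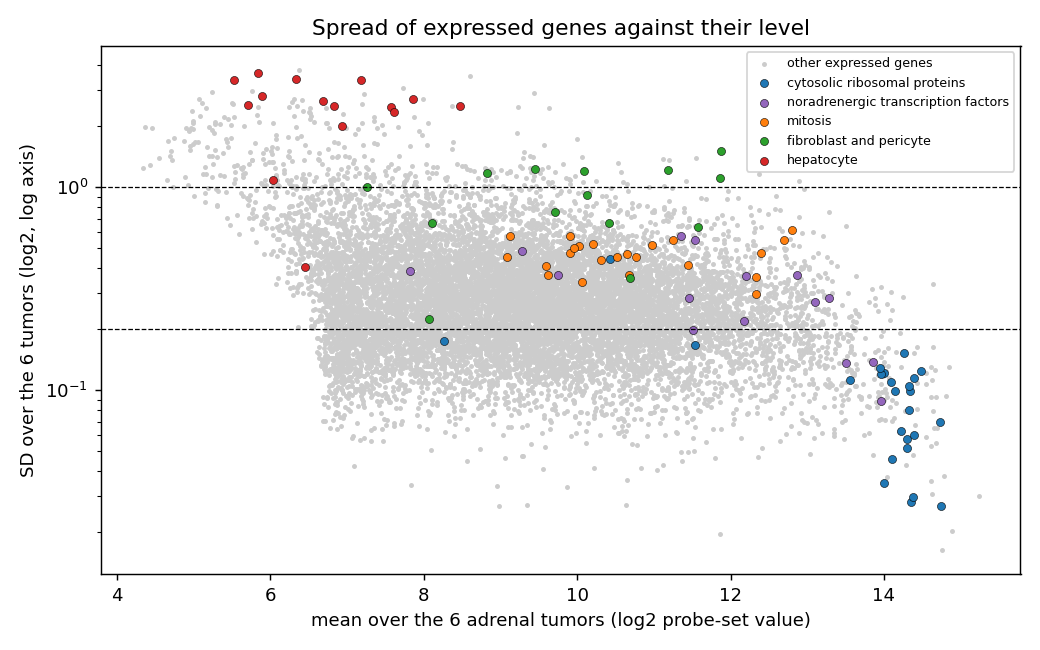
SD over the 6 adrenal tumors (log axis) against mean log2 probe-set value for 12195 expressed genes, each a point; coloured points are members of 5 gene lists, and dashed lines mark an SD of 0.2 and of 1. Ribosomal protein genes lie mostly at the lower right, genes of mitosis in the middle, and genes of fibroblasts and of hepatocytes mostly near or above an SD of 1.

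Ribosomal protein and respiratory chain genes had the lowest median SDs of the lists apart from the reference genes. Beside the median SD of 0.263 over all expressed genes, the 25 expressed cytosolic ribosomal protein genes had a median SD of 0.10, and 24 of them lay under 0.2. The exception was Rps6, with an SD of 0.45 and its lowest value, 9.69, in tumor 3. The probe set kept for Rps16 was detected in no tumor. The 18 respiratory chain genes had a median SD of 0.18, among them Atp5a1 (13.35 ± 0.06, SD, n = 6) and Cox4i1 (13.68 ± 0.09). The 21 genes of ribosome assembly, known targets of MYC proteins, had a median SD of 0.22. Npm1 was 13.62 ± 0.10, Fbl 12.47 ± 0.14, Gnl3 10.98 ± 0.14 and Rrp9 8.99 ± 0.12. Ncl, which codes for nucleolin, was the most spread of them, at 10.85 in tumor 1 and 12.50 to 13.34 in the others, but a second probe set of Ncl read 11.37 in tumor 1 and 10.72 to 11.26 elsewhere, so that tumor 1 was then the highest. In all, 33 of the 42 lists had a median SD above that of all expressed genes.

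Genes often used as references differed in how even they were. Eef1a1, Actb, Rpl13a (14.40 ± 0.11, SD, n = 6), Pgk1 (13.07 ± 0.14), Gusb (9.79 ± 0.15), Hprt (11.97 ± 0.15), Gapdh (SD 0.15), Sdha (11.52 ± 0.17) and Tbp (8.60 ± 0.19) had an SD under 0.2. Ywhaz was 14.11 ± 0.25, Polr2a 10.90 ± 0.31 and Eef2 13.85 ± 0.32. Tfrc, the transferrin receptor, ran from 11.51 in tumor 1 to 13.09 in tumor 3. B2m, the light chain of MHC class I, was 11.85, 11.63, 11.99, 11.61, 9.98 and 12.65 in tumors 1 to 6. It was lowest in tumor 5 and highest in tumor 6, and its second probe set followed it (r = 0.95).

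MYC network genes were present in all 6 tumors, with 12 of 12 detected throughout. Only 3.02% of all expressed genes had an SD of 1 or more, so its absence among these 12 tells little. Mouse Mycn was 11.99 ± 0.34 (SD, n = 6), lowest in tumor 5 (11.59) and highest in tumor 4 (12.55). Its probe set is annotated to the mouse gene, and whether it also reads the human transgene was not tested. A second Mycn probe set spread more widely, from 6.86 in tumor 1 to 9.44 in tumor 4. Myc, a close relative of Mycn, was 9.08 in tumor 1 and 7.67 to 8.40 elsewhere, and Mycl was 7.74 to 8.98. Max, the shared partner of MYC proteins, was 8.62 ± 0.46. Among the repressors that compete for Max, Mnt was the steadiest at 9.95 ± 0.09, Mxd1 was 8.51 ± 0.31, Mxd3 9.17 ± 0.52, Mxd4 9.51 ± 0.29, Mxi1 10.72 ± 0.24 and Mga 9.67 ± 0.31. The related factors Mlx and Mlxip were 8.23 ± 0.30 and 8.97 ± 0.29.

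Genes of mitosis were mostly highest in tumor 3 and lowest in tumor 2. The 23 measured genes of mitosis were detected in all tumors with a median SD of 0.47, above the 0.263 of all expressed genes. None had an SD of 1 or more, which tells little beside 3.02% of all expressed genes. Tumor 3 was the highest for 20 of the 23 (15% of all expressed genes) and tumor 2 the lowest for 16 (14%). Tumor 1 had no common place, being the highest for 2 of them and the lowest for 1. The list mean was 0.57 above the gene means in tumor 3, 0.28 in tumor 4, 0.07 in tumor 6, 0.00 in tumor 1, -0.38 in tumor 5 and -0.54 in tumor 2. Tumor 3 stood above tumor 2 for each of the 23, by 0.57 to 1.62 with a median of 1.08. Mki67, the proliferation marker Ki-67, was 12.52, 11.77, 13.39, 13.05, 12.70 and 12.76 in tumors 1 to 6. Ube2c, which helps to end mitosis, was 12.03, 12.34, 13.62, 13.20, 12.45 and 13.19. Top2a, which untangles DNA, ran from 11.97 in tumors 1 and 2 to 13.01 in tumor 3.

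Replication genes differed from this, with tumor 1 among the high tumors. Of 28 expressed genes, 14 were highest in tumor 1 (29.9% of all expressed genes) and 11 in tumor 3 (15%), while 17 were lowest in tumor 5 (21.9%) and 9 in tumor 2 (14%). Pcna, the sliding clamp, was 12.93, 12.71, 13.63, 13.14, 12.51 and 13.19 in tumors 1 to 6, and Mcm7 of the replicative helicase ran from 12.16 in tumor 2 to 13.40 in tumor 3. Cdc6, which loads that helicase, was 7.80 in tumor 5 and 9.37 in tumor 4. Orc2 was the steadiest at 9.91 ± 0.10 (SD, n = 6). G1 regulators held 3 genes with an SD of at least 1 among 20 (3.02% of all expressed genes). Ccnd2, a D-type cyclin, was 9.17, 7.32, 8.32, 8.91, 6.67 and 9.36 in tumors 1 to 6, whereas Ccnd1 was 13.96 ± 0.32. Cdkn2a, which codes for p16 and p19ARF, was 6.25, 7.18, 7.68, 5.09, 9.27 and 6.64. It was detected in tumors 3 and 5 alone. Cdkn1c, an imprinted inhibitor of cyclin-dependent kinases, was 7.04 in tumor 3 and 8.45 to 9.79 on the other arrays.

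Genes of the growing neuron were most often lowest in tumor 1. All 25 measured genes of the growing neuron were detected in all tumors, and tumor 1 had the lowest value for 15 of them, against 19.6% of all expressed genes. Its list mean was -0.40, against -0.00 to 0.14 in the others. Dpysl3, a growth cone protein, was 11.76 in tumor 1 and 13.49 to 13.84 on the other arrays, and Map1b, a microtubule protein of axons, was 12.25 against 13.38 to 13.90. A second probe set of Map1b spread far wider, at 6.19 and 7.38 in tumors 1 and 2 and 9.62 to 11.30 in the other 4. Prph, the peripheral neuron filament, had the only SD above 1 in the list, and it was tumor 5 that stood low, at 10.20 against 12.18 to 13.56. Genes of granins, prohormones and their processing enzymes were highest in tumor 5 for 7 of 10 expressed members, against 16% of all expressed genes, with a list mean of 0.66. Chgb, a granin of dense-core vesicles, was 12.39, 12.12, 12.51, 11.34, 13.72 and 12.17 in tumors 1 to 6, and Npy, neuropeptide Y, was 12.95 in tumor 5 and 11.14 to 11.96 elsewhere. Cpe, which trims prohormones, was 13.48 ± 0.06 (SD, n = 6). Penk and Pcsk1 were detected in no tumor.

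**Figure D2:**
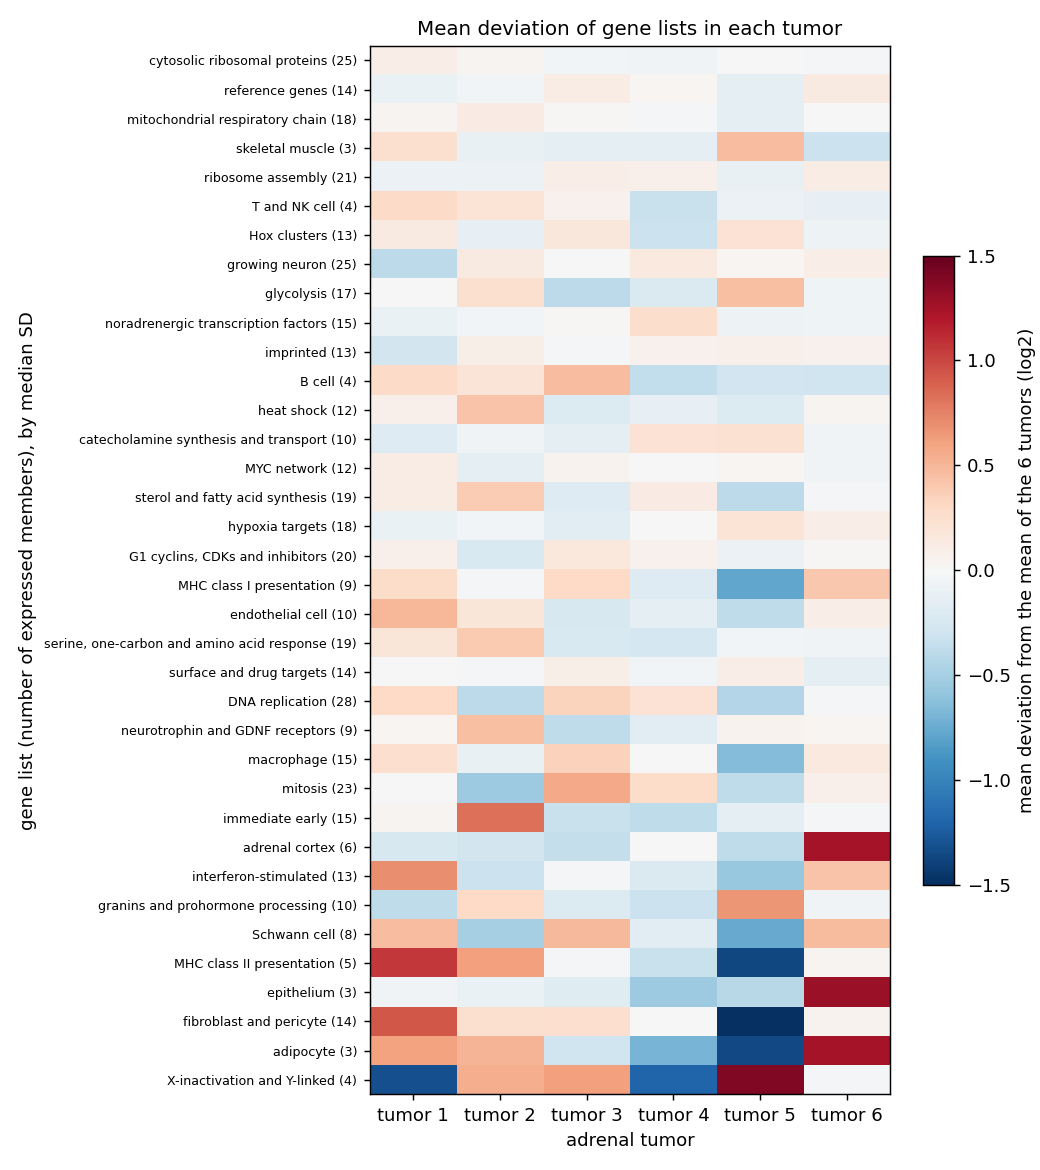
Mean deviation (log2, colour) of the expressed members of 36 gene lists in each of the 6 adrenal tumors, each gene centred on its mean over the 6, with lists ordered by median SD and the number of expressed members in brackets; the hepatocyte list and lists with fewer than 3 expressed members are not drawn. Ribosomal protein genes are near 0 in all tumors, tumor 5 is low for fibroblast and MHC class II genes, tumor 2 is high for immediate early genes and tumor 3 for mitosis.

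Tumor 6 accounted for most of the widely spread genes. Of the 368 genes with an SD of at least 1, 207 were highest in tumor 6, as were 16 of the 20 with the highest SD. Among the expressed genes, 367 were detected in tumor 6 alone and passed the filter only through it. With no filter, 375 genes reached that SD. All 15 measured hepatocyte genes were highest there, against 9.95% of all expressed genes. They read 7.09 to 14.09 in tumor 6, with a median of 12.37, and 3.91 to 8.48 in the other 5, with a median of 5.74. Alb, serum albumin, was 5.83, 5.88, 5.96, 5.62, 5.72 and 14.09 in tumors 1 to 6. Fga, which codes for a fibrinogen chain, was 4.29, 3.97, 4.13, 4.22, 4.11 and 12.41. Serpina1c, a protease inhibitor of plasma, had the highest SD of all genes (3.79), with 14.09 in tumor 6 and 4.62 to 5.00 in the others. Cyp3a11, a drug-metabolising enzyme, Fabp1, a fatty acid carrier, Pzp, Fgg, Apoc3, Ugt2b5, Cyp2c29, Bhmt, Hpx, Mug1 and H2-Q10 also stood far above the other 5 tumors there. Each of these named genes was detected in tumor 6 alone, so the true gap may be wider than the values show.

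The promoters of 2 of these liver genes are shown because their transcripts separate tumor 6 from the others. The sequences are the RefSeq promoters of build GRCm38.p6, 300 bases around the gene's start, on the strand of the gene. Capitals mark the HNF1 half-site GTTAAT, searched on both strands, which is bound by a liver transcription factor family. The Alb promoter lies at chr5:90460620-90460919 on the plus strand and the Fga promoter at chr3:83025903-83026202 on the plus strand.
Alb: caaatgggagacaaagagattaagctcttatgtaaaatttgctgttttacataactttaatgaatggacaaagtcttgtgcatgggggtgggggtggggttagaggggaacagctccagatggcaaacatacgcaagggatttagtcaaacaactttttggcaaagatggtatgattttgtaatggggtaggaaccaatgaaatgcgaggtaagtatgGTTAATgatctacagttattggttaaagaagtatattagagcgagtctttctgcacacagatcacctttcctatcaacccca
Fga: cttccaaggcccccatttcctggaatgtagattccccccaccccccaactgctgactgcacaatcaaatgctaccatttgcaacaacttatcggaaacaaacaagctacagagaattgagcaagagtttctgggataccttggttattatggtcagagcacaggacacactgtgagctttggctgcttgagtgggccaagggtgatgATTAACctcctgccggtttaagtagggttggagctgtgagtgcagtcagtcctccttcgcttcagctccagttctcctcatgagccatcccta
These letters were found in 4 of 12 promoters of the hepatocyte list (Alb, Fabp1, Fga and Fgb), and in 5.06% of the 14453 promoters of measured genes. A match describes the sequence alone.

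Some genes of other tissues were also highest in tumor 6. Of 11 measured genes of the adrenal cortex, 5 were detected in no tumor, as were 5999 of all 18194 genes. Hsd3b1, a steroid-forming enzyme, was 5.23, 5.04, 5.19, 6.52, 5.05 and 9.41 in tumors 1 to 6, and Cyp11b1 was 7.21 in tumor 6 and 5.72 to 6.20 on the other arrays. Star, which brings cholesterol into mitochondria, was 7.98 in tumor 6 and 6.82 to 7.04 elsewhere. Of the 6 expressed cortex genes, 5 were highest in tumor 6. Cyp11a1, Cyp11b1 and Hsd3b1 were detected in tumor 6 alone, so they count as expressed only through it. Their place was thus set by the filter, and the share of 9.95% of all expressed genes is no fair measure for them. Only 2 of the 6 were detected in every tumor, and neither set tumor 6 clearly apart. Scarb1 had its top value in tumor 1 (9.41, against 9.27 in tumor 6). Cyp21a1 was nearly even over the 6 tumors (SD 0.13), with 8.07 in tumor 6 and a lowest value of 7.79. The keratin genes Krt8 and Krt18, which hepatocytes and other simple epithelia express, were 8.68 and 8.28 in tumor 6 and were detected in no other tumor. The other 4 epithelial genes did not share this, as Epcam was highest in tumor 1 (7.79, against 7.39 in tumor 6) and Krt19, Cdh1 and Cldn4 were detected nowhere. Adipoq, a fat cell hormone, was 8.59 in tumor 6 and 4.50 in tumor 5, with 6.29 to 7.72 in between. Kidney tubule genes did not share this order: 8 of 10 were detected in no tumor, and Kap was 7.42 there and 7.52 to 8.09 elsewhere. Without tumor 6, 233 genes had an SD of at least 1, of which 181 were among the 368.

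Fibroblast and pericyte genes set tumor 5 apart in the other direction. Of the 14 expressed genes of that list, 7 had an SD of at least 1, against 3.02% of all expressed genes, and 13 were lowest in tumor 5, as were 21.9% of all. The list mean was -1.49 in tumor 5 and 0.94 in tumor 1, with 0.01 to 0.25 in the other 4. Col3a1, a collagen of loose connective tissue, was 13.63, 12.31, 12.56, 12.03, 9.11 and 11.65 in tumors 1 to 6. Sparc, a matrix protein, was 11.99, 11.45, 12.05, 11.05, 8.82 and 11.74. Tumor 5 lay below the median of the other 5 by 0.49 to 3.20 over the 14 genes, with a median of 1.49. The second probe sets of Col3a1 (r = 1.00) and Sparc (r = 0.98) followed the first. Pdgfra was detected in no tumor. Among all genes, 14 stood at least 2 below the other 5 in tumor 5, led by Fabp7, a fatty acid binder of glial precursors (4.62 against 8.35 to 11.29), Car3, a carbonic anhydrase of fat and muscle (5.35 against 8.97 to 12.83), the apelin receptor Aplnr (4.67 against 7.55 to 10.39), Col8a1 and Mgp.

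**Figure D3:**
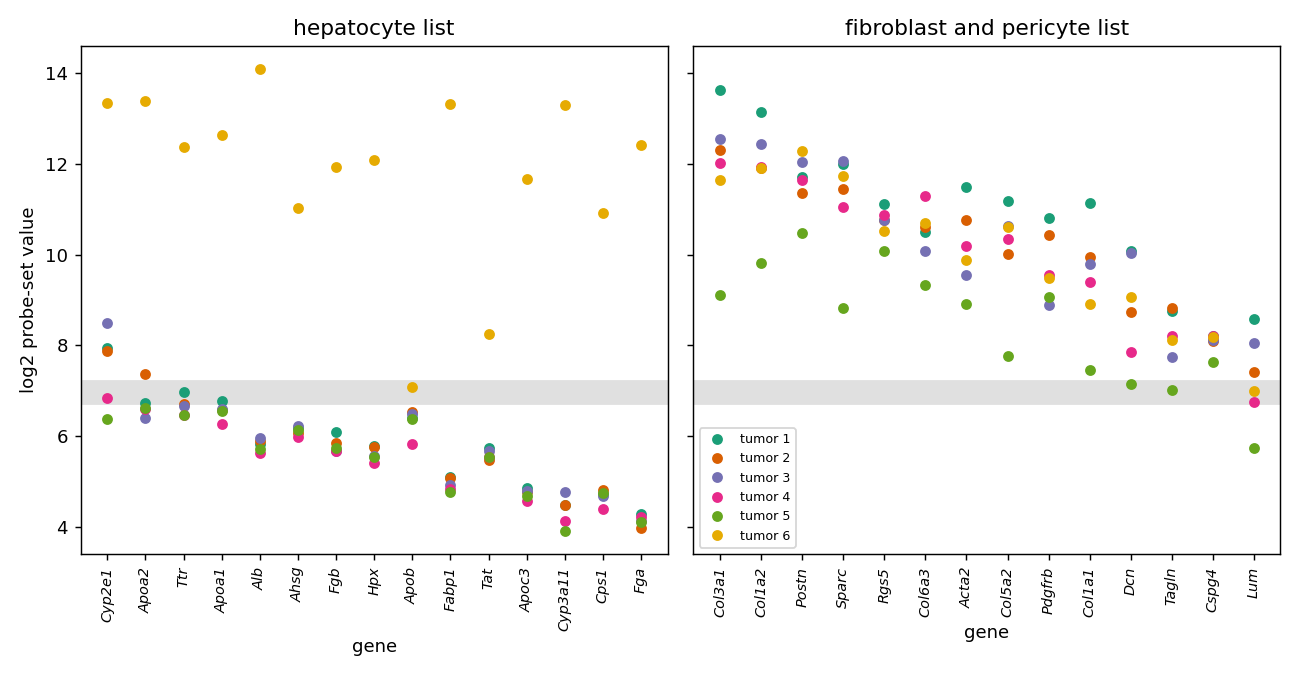
Log2 probe-set values in each of the 6 adrenal tumors for expressed genes of the hepatocyte list (left, 15 genes) and of the fibroblast and pericyte list (right, 14 genes), ordered by mean; the grey band spans the detection limits of the 6 arrays. Tumor 6 is the highest for each hepatocyte gene, and tumor 5 is the lowest for 13 of the 14 genes on the right.

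Genes of antigen presentation were lowest in tumor 5, while their highest tumor differed. The 5 expressed MHC class II genes were all highest in tumor 1 (29.9% of all expressed genes) and all lowest in tumor 5 (21.9%). H2-Aa was 11.08, 10.23, 9.43, 9.01, 6.88 and 9.67 in tumors 1 to 6. All 9 expressed genes of MHC class I presentation were lowest in tumor 5 (21.9% of all expressed genes), among them H2-K1 (9.20 against 10.02 to 11.52). Their list mean was highest in tumor 6 (0.40). Of 15 expressed macrophage genes, 10 were lowest in tumor 5 (21.9% of all expressed genes), while 7 each were highest in tumors 1 (29.9%) and 3 (15%). Lyz2, lysozyme, was 12.41, 12.14, 12.90, 12.45, 11.65 and 12.74, and the receptor gene Csf1r was 10.59 ± 0.45 (SD, n = 6). C1qa did not follow: it was lowest in tumor 1 (8.27) and 9.86 to 10.85 elsewhere, while C1qb was highest there (11.95). Cd163 was detected in no tumor.

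Many lymphocyte genes were at or near background. Of 12 measured T and NK cell genes, 8 were detected in no tumor, as were 5999 of all 18194 genes. None was detected in all 6, against 55.5% of all genes, and Cd3e was 6.50 to 7.22. Of 8 B cell genes, 4 were detected nowhere, and 3 were detected in all tumors at low signal: Ighm (7.93 ± 0.11, SD, n = 6), Cd22 (7.98 ± 0.29) and Mzb1 (7.17 ± 0.29). Jchain, of antibody-secreting cells, was 7.88 in tumor 3 and 5.42 to 7.01 elsewhere. S100a8 and S100a9, abundant in neutrophils, were 8.83 and 8.39 in tumor 1 and at most 6.18 and 6.36 in the others, but Ltf, Ngp, Camp, Elane, Mpo and Cxcr2 were detected in no tumor. Interferon-stimulated genes were highest in tumor 1 for 10 of 13 expressed members, against 29.9% of all expressed genes. Ifi27l2a was 9.45, 8.16, 7.00, 6.23, 6.13 and 9.08 in tumors 1 to 6, and Rtp4 was 8.05 in tumor 1, 7.72 in tumor 6 and detected in no other tumor. Xaf1 was 5.15 in tumor 2 and 6.31 to 8.39 on the other arrays.

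Tumor 1 was the highest for 8 of 10 expressed endothelial genes (29.9% of all expressed genes) and tumor 5 the lowest for 8 (21.9%). Cdh5, the cadherin of endothelial junctions, was 7.98, 7.56, 6.53, 7.17, 5.81 and 7.42 in tumors 1 to 6, and Pecam1 was detected in no tumor. Egfl7 was 9.26 ± 0.24 (SD, n = 6). Of the Schwann cell genes, the lineage factor Sox10 was detected in all tumors at 7.67 in tumor 5 to 8.93 in tumor 1. Mbp, the myelin basic protein gene, had its 2 high values in tumors 3 (9.87) and 5 (9.82), and was 8.35 to 9.41 elsewhere, so tumor 5 was not low for every glial gene. The median SD was 0.36 over the endothelial and 0.65 over the Schwann cell genes, beside 0.29 for the noradrenergic transcription factors.

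Tumor 2 carried the highest values of immediate early genes, which switch on within minutes of a stimulus. Of 15 expressed members, 12 were highest in tumor 2 (19.5% of all expressed genes), with a list mean of 0.82 against -0.38 to 0.04 in the others. Fos was 8.38, 9.67, 7.15, 7.24, 8.30 and 8.66 in tumors 1 to 6, and Egr1 was 10.23, 11.94, 9.16, 9.53, 10.05 and 10.05. Dusp1, a phosphatase that ends MAP kinase signals, moved less, from 10.37 to 11.08. Klf6 went the other way and was lowest in tumor 2 (10.45). The promoters of Fos and Dusp1 are shown because both genes were highest in tumor 2 and hold the CRE half-site TGACGT, the recognition sequence of CREB family factors, marked by capitals on either strand. In Dusp1, 2 of the 3 matches overlap. The sequences are from RefSeq, build GRCm38.p6, at chr12:85473640-85473939 (plus strand) for Fos and chr17:26508423-26508722 (minus strand) for Dusp1.
Fos: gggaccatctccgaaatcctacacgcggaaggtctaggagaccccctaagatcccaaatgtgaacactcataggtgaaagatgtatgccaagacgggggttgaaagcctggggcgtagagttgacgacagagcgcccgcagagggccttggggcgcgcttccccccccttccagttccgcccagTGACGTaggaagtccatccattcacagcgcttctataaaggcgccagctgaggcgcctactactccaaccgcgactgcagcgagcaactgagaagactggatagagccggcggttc
Dusp1: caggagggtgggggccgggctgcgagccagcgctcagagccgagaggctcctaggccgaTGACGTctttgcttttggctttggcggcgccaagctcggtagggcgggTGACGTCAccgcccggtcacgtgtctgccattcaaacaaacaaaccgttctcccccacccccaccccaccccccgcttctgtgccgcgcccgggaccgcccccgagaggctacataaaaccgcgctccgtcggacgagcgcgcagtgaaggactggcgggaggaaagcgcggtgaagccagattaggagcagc
The letters TGACGT were found in 5 of 16 promoters of the immediate early list and in 9.99% of the promoters of measured genes. They were also in 4 of 18 promoters of the ribosome assembly list, 1 of 19 of mitosis and 0 of 12 of the hepatocyte list. Other motifs were searched too. In the immediate early list the E-box CACGTG was in 4 of 16 (9.02% of measured genes) and the CArG box in 1 of 16 (1.36%). A match describes the sequence alone.

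Metabolic and stress genes differed by tumor too. The inducible heat shock gene Hspa1b was 8.94 in tumor 2 and 5.96 to 7.02 on the other arrays, whereas the constitutive Hspa8 was 14.28 ± 0.08 (SD, n = 6). Sterol and fatty acid synthesis genes were highest in tumor 2 for 10 of 19 (19.5% of all expressed genes) and lowest in tumor 5 for 8 (21.9%). Fdps, a step towards cholesterol, was 10.93, 12.60, 11.71, 12.30, 11.23 and 11.73 in tumors 1 to 6. Glycolysis genes were highest in tumor 5 for 7 of 17 (16% of all) and lowest in tumor 3 for 9 (17.2%). Ldhb, a lactate dehydrogenase subunit, was 10.70, 9.79, 8.37, 8.01, 11.09 and 9.31, and its second probe set followed it (r = 0.99). Eno2, the neuronal enolase gene, stood at 8.81 in tumor 5, and its highest value elsewhere was 6.35. Asns, asparagine synthetase, was 12.32, 12.53 and 12.37 in tumors 1, 2 and 5 and 11.28 to 11.53 in the other 3. Trib3, a gene of the amino acid response, was 9.06 in tumor 2 and 7.50 to 7.97 elsewhere.

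Some genes were at 2 separated levels, with a gap of at least 2 between groups of tumors and no comparable gap inside either. There were 8 of them. Xist, which coats the inactive X chromosome of females, was 12.57 and 13.69 in tumors 1 and 4 and 6.15 to 6.64 in the others. The Y-linked Eif2s3y was 3.72 and 3.85 in tumors 1 and 4 and 9.27 to 10.47 in the others, and Uty followed (4.06 and 3.50 against 7.53 to 8.58). Kdm5d, also Y-linked, was 3.96 and 3.74 in tumors 1 and 4, and among the others 6.44 in tumor 6 and 8.12 to 9.68 in tumors 2, 3 and 5.

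The other 5 such genes did not follow that split. Zfhx4, a zinc finger homeobox factor, was 4.48 and 4.58 in tumors 2 and 4 and 9.12 to 10.34 in the other 4. Twist1, a factor of neural crest and mesenchyme, was 9.88 and 9.78 in tumors 1 and 2 and 4.84 to 6.18 in the others. Crh, corticotropin-releasing hormone, was 8.54 and 7.94 in tumors 2 and 5 and 3.61 to 4.55 elsewhere. Nhlh2, a neuronal helix-loop-helix factor, was 9.75 and 8.90 in tumors 3 and 5 and 5.04 to 6.21 elsewhere. Galc, a lysosomal enzyme of myelin lipids, was 5.31 and 4.99 in tumors 4 and 6 and 7.87 to 8.49 in the other 4. No 2 of these 5 genes shared the same high tumors.

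**Figure D4:**
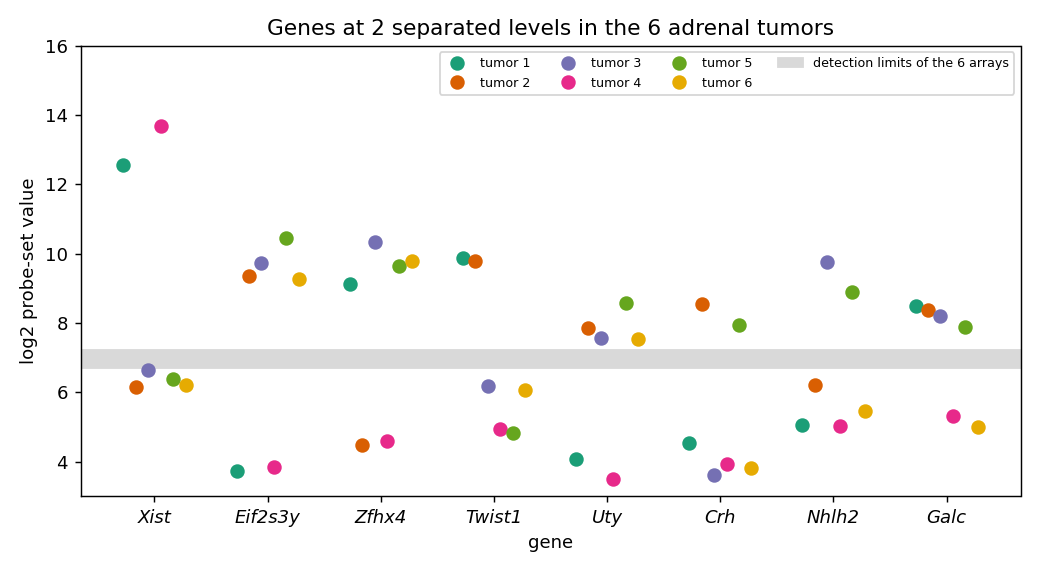
Log2 probe-set values of the 8 genes at 2 separated levels in the 6 adrenal tumors, each point 1 tumor; the grey band spans the detection limits of the 6 arrays. Xist is high in tumors 1 and 4, where Eif2s3y and Uty are low, and the other 5 genes split the tumors in other ways.

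Further genes stood high or low in single tumors. Hoxc8 was 7.99, 5.10, 10.10, 5.12, 9.61 and 6.20 in tumors 1 to 6, and Hoxc9, the next gene of its cluster, had the same 3 highest tumors at 8.07, 7.60, 9.01, 7.29, 8.42 and 7.37. Hoxc6 was also highest in tumors 5, 1 and 3 (7.67, 7.65 and 7.58), within a narrow range from 7.06. Hoxc4, farther along the cluster, was 11.08 ± 0.34 (SD, n = 6), and 12 of 25 measured Hox genes were detected nowhere (5999 of all 18194 genes). Fgf13, an intracellular relative of growth factors that acts in neurons, was 11.42, 11.68, 11.22, 4.28, 7.66 and 10.35. The helix-loop-helix gene Tcf24 was 12.53 in tumor 5 and 5.62 to 8.82 on the other arrays. In tumor 2, Ifi213 was 10.33 against 5.22 to 5.93, Cbln4, a synaptic organiser, was 9.07 against 4.57 to 6.21, and Gm7967 was 8.39 against 3.44 to 3.65. In tumor 3, Gm6958 (10.21) and Rps4l (11.02) stood above the others, and Rpgrip1 (6.86) and Cntn4 (5.14) below. In tumor 4, St6gal2 was 3.35 against 7.07 to 8.76.

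In tumor 1, 11 genes stood at least 2 below the other 5 tumors. Zdbf2, an imprinted gene, was 8.41 against 11.15 to 12.26, Fads2, a fatty acid desaturase, 6.68 against 9.32 to 10.42, and Tmem87a 6.77 against 9.27 to 10.11. Fam171a2 (6.92) and Pacs2 (7.70) completed the 5 widest gaps. The imprinted Nnat came next at 7.21 against 9.42 to 10.43. Second probe sets did not bear all of this out: for Fads2 it read 8.03 in tumor 1, inside the 7.76 to 8.82 of the others, and for Pacs2 it was detected in no tumor. The gap between the 3′ and 5′ probe sets of Gapdh, 5.51, belongs to the same tumor, and its part in these values was not tested.

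Genes of some chromosomes shifted together in some tumors, relative to the mean of the 6. For each chromosome the median deviation of its genes detected in all 6 tumors was taken, with arrays centred on the autosomes. On 16 of 20 chromosomes the 6 medians lay between -0.05 and 0.08. The other 4 were chromosomes 1, 3, 6 and 11. On chromosome 3, tumor 3 had a median of -0.21 over 495 genes, against 0.01 to 0.09 in the others. On chromosome 1, tumor 2 stood at 0.19 over 575 genes, against -0.08 to -0.02. Chromosome 6, which carries the ROSA26 locus of the transgene, spread most: its 504 genes had medians of 0.25 in tumor 5, 0.13 in tumor 2, 0.01 in tumor 1, -0.09 in tumor 6, -0.14 in tumor 3 and -0.15 in tumor 4. On chromosome 11, tumor 2 stood at 0.12 and the others at -0.05 to 0.03. Expression alone was measured, and DNA copy number was not analysed here.

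Split into 5 blocks of equal gene number along each chromosome, these shifts covered whole chromosomes or ends of them. On chromosome 3 all 5 blocks of tumor 3 lay between -0.23 and -0.16, and on chromosome 6 all 5 blocks of tumor 5 lay between 0.21 and 0.30. On chromosome 1, the first 3 blocks of tumor 2, up to Tmem81, were at 0.27 to 0.29, the 4th at 0.13 and the last at -0.09. On chromosome 11 only the 3 distal blocks of tumor 2, from Neurl4 onward, were raised, at 0.17, 0.22 and 0.30. The 4 chromosomes were singled out after their values were seen. In the 80 blocks of the other 16 chromosomes, values stayed between -0.14 and 0.14. The highest was on chromosome 7 in tumor 3, whose 3 distal blocks there were at 0.14, 0.12 and 0.10. Some genes named above lie on these chromosomes. Gm7967 and Ifi213, high in tumor 2, are on chromosome 1, and Eno2, high in tumor 5, is on chromosome 6. Others went against the shift. Rps4l, also on chromosome 6, was high in tumor 3, where that chromosome stood at -0.14. Zfhx4 and Nhlh2, on chromosome 3, were both high in tumor 3, and Crh lies on that chromosome too. The gaps of all these genes were far wider than the shifts of the chromosomes.

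**Figure D5:**
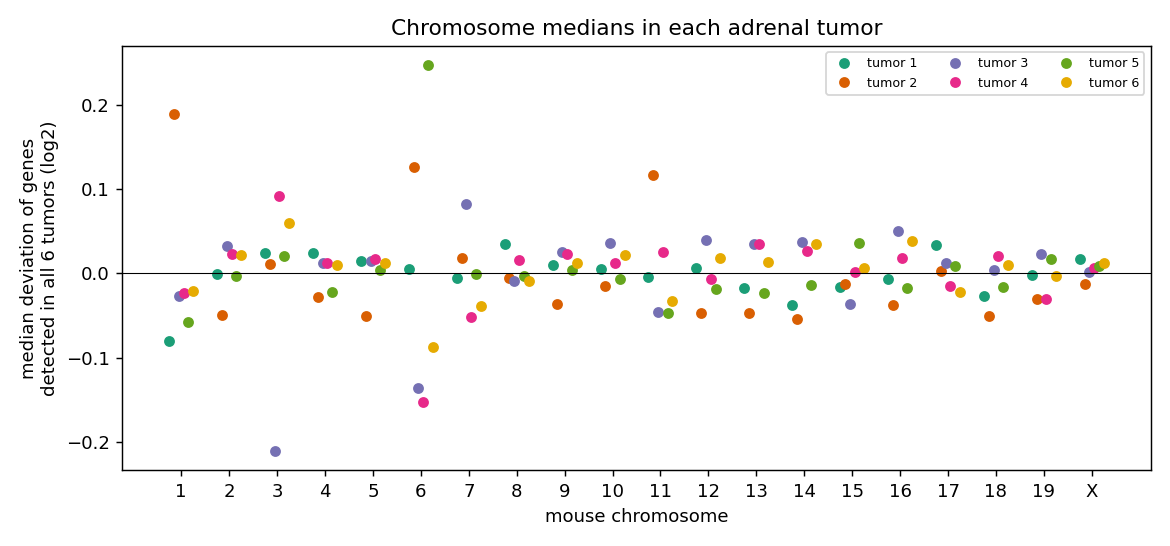
Median deviation (log2) of the genes detected in all 6 adrenal tumors, by chromosome, each point 1 tumor, with arrays centred on the autosomes. Most points lie near 0, with tumor 2 high on chromosomes 1 and 11, tumor 3 low on chromosome 3, and the 6 tumors spread out on chromosome 6.

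A second probe set gives another reading of the same RNA on the same array. For 3894 genes with 2 probe sets detected in all tumors, the median correlation of the second with the first over the 6 tumors was 0.59, with quartiles of 0.12 and 0.86. It was 0.40 for the 1320 genes whose first probe set had an SD under 0.2, 0.66 for SDs of 0.2 to 0.5, 0.87 for SDs of 0.5 to 1 and 0.98 for the 19 genes with an SD of 1 or more. With 6 tumors, a correlation of this kind is a description only.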

How the data were processed

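The authors deposited log2 values of 45101 probe sets for each array, already background corrected and normalized between arrays; RMA and Partek 6.6 are named in the submitters' processing notes, gcRMA in the study's methods, and which was used is not settled here. The upper quartile ran from 8.85 to 8.93 over the 6 arrays, and no further normalization was applied. The platform annotation named 1 gene for 34958 probe sets, several for 932 and none for 9211, and 34754 matched the RefSeq gene table. A gene with several probe sets was read from the one of highest average signal in these tumors.

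Spread was the SD over tumors, a gene apart had a gap of at least 2 to the nearest other tumor, and a gene at 2 levels a gap of at least 2 that was 3 times any gap inside a side with at least 2 tumors. No test between groups was run, since there is 1 group, and Dixon's criterion for a single far tumor was applied to list means, chromosome medians, array measures and genes. Named were the 15 genes of highest mean, the 15 of lowest SD, the 20 of highest SD, up to 5 per tumor above and below, 2-level genes, and within each list those of highest mean and of extreme SD. Members of the catecholamine, MYC network, X and Y, and reference lists were all named where measured. Outside these rules, Stmn3, Tubb2b, Dpysl2, Cartpt, Gnl3, Rrp9, Npy and Hoxc6 were picked with their values in view. The members, the 42 lists (594 of 653 entries measured) and all choices were made with earlier results of these data known. Genes with no probe set of their own are not reported. Python 3.11.15, numpy 2.4.6, pandas 2.3.3 and matplotlib 3.10.9 were used, and the steps were tested on simulated data. Alternatives covered normalization, filter, detection limit, probe set and each tumor left out. The number of arrays limits the precision.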

Additional observations from a re-analysis of the deposited data

Results flagged for a closer look

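For 37 gene lists, 20 chromosomes and 6 array measures, the highest or lowest tumor was set against the range of all 6, by a criterion (Dixon's) that chance meets in about 1 of 20 groups. It was met by 7 lists (18.9%), 4 chromosomes (20%) and 2 array measures, beside 10.8% of single expressed genes. The lists were made with earlier results of these data known, so these counts are a description only. The 7 list means, as deviations from the gene means, were those of the noradrenergic transcription factors in tumor 4 (0.26), the growing neuron in tumor 1 (-0.40), the immediate early genes in tumor 2 (0.82), the imprinted genes in tumor 1 (-0.28), and in tumor 6 the adrenal cortex (1.25), hepatocyte (5.13) and epithelium (1.29) genes. The other 5 tumors lay between -0.02 and 0.09 for the imprinted genes. Most hepatocyte members, and Cyp11a1, Cyp11b1, Hsd3b1, Krt8 and Krt18, were detected in tumor 6 alone. They entered the 3 means of tumor 6 only through that tumor, so those means were raised by the filter.

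The chromosomes were 1 in tumor 2 (median 0.19), 3 in tumor 3 (-0.21), 5 in tumor 2 (-0.0506) and 9 in tumor 2 (-0.0364), the last pair lying near 0. The array measures were the gaps of Gapdh (5.51) and Actb (2.77) in tumor 1.

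Among 84 genes named by their level or spread, 36 had 1 tumor far from the other 5 (42.9%), against 10.8% of expressed genes, and these genes were chosen by values of the same kind. Tumor 6 was far above for 16, Alb and Fabp1 among them. Tumor 2 was far above for 4 (Cbln4, Cd14, Gm7967 and Ifi213), and tumor 5 above for 3 (2900055J20Rik, Eno2 and Gpat2) and below for 1 (Col8a1). Tumor 1 was far above for 2 (S100a8 and Slfn4) and below for 5 (Fads2, Fam171a2, Pacs2, Tmem87a and Zdbf2). Tumor 3 was far above for 1 (Gm6958) and below for 3 (Cntn4, Gm26782 and Rpgrip1), and tumor 4 below for 1 (St6gal2). The cause of these values was not tested.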

How the results depend on the processing

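Of 222 alternative values of the main results, 210 stayed near the reported one, as did 619 of 626 alternative list medians. For a chromosome median, near meant the same sign and a move smaller than the SD of its 6 medians. That rule was loose on chromosome 6, where the SD was 0.159 and tumors 2, 3 and 4 stood at 0.127, -0.136 and -0.153. Counts could change by a set factor, and 4704 stable genes without tumor 1, beside 3386 with it, passed as near. No chromosome median or correlation changed sign, and counts and SDs could not. The mean correlation was 0.971 over genes above 5 in at least 2 tumors and 0.976 with no filter. With the MAD in place of the SD, 136 genes were widely spread, 5208 stable, and the median was 0.203. Averaging all probe sets of a gene left 5 genes at 2 levels. Leaving out 1 tumor gave 4 to 8 genes at 2 levels, 233 to 417 widely spread genes and 53 to 233 genes with 1 tumor apart (213 with all 6), the lowest of the last 2 counts both without tumor 6. Leaving out tumors 1 and 6 together, an alternative added after the data were seen, gave 231 and 64. Leaving out tumor 1 gave 5 genes at 2 levels and leaving out tumor 4 gave 4. No paired analysis was possible because there is only 1 group. Signals near the detection limit, 6.71 to 7.21, have no reliable order, and 6 arrays give no separate estimate of technical error.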
